A study of Drosophila melanogaster with 28 samples.

Results

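Female and male tud progeny, pupae without germ cells, were compared directly on 4 of the 28 arrays of the series, and these arrays give the sex difference of somatic tissue at 48 hour APF (after puparium formation). They were chosen by their titles, which name tudor progeny and replicates 1 to 4. Each array was hybridized with RNA from female and from male tud progeny, each from whole pupae, about 30 per RNA, with 30 µg of RNA labeled. The animals were the offspring of females homozygous for tud1 bw1 sp1 and of males that carried y, w, the GFP transgene P[w+cM UBI-GFP] and an FRT insertion. Daughters therefore carried the paternal X with y, w and GFP beside a maternal X, sons had the maternal X alone, and the sexes were told apart by fluorescence. The other arrays used here compared females with males of the wild type strains Canton S (CS) and Berlin, and CS females with XX dsxD and XX tra pseudomales, with 4 arrays each. Both pseudomales carried 1 X with y, w and the GFP transgene. The dsxD pseudomales were dsxD, Sb1, e1 over dsxm+r15, and the tra pseudomales tra1 over Df(3L)st-j7. Female RNA was labeled with Cy5 on replicates 1 and 2 of the tud progeny and male RNA on replicates 3 and 4. For replicates 2 and 4 the sample descriptions disagree on the sex in the second channel, and the field that matches a dye-swap design was used. The deposited values are log2 ratios of female over male, so that a value of 1 is a 2-fold higher level in females and a negative value a higher level in males.

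Tudor is a component of the germ plasm that mothers supply to the egg, and embryos of mutant mothers form no germ cells. Per the study, expression within germ cells cannot be told apart from somatic expression that depends on them. In the soma, sex is set by the number of X chromosomes, which turns on Sex lethal (Sxl) in females. Sxl directs the splicing of transformer (tra), whose product in turn directs the splicing of doublesex and fruitless, and Sxl also blocks dosage compensation, the process in which the roX RNAs and the MSL proteins raise transcription of the single X of males. By the middle of pupal life the epidermis is preparing the adult cuticle, while the flight muscles and the adult head and abdomen are being built.

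Most markers of the male germline had no value on at least 3 arrays of the tud progeny, and those tested were not called. Of 18 elements for male germline markers, such as the Mst genes of spermatid differentiation and the testis tubulin betaTub85D, between 3 and 7 had a value on an array of the tud progeny, against 18 on every CS array and between 14 and 18 in Berlin. The 5 that could be tested with limma had estimates from -0.10 to 0.07, and 0 were called, also 0 at an unadjusted p below 0.05 and 0 without a dye term. Over all markers measured on at least 3 arrays the median was 0.04 for 5 in tud progeny, against -3.98 for 18 in CS and -3.78 for 17 in Berlin. Mst87F, the sperm-tail protein gene, had log2 ratios of -0.58, -0.04 and 0.88 on replicates 1, 3 and 4, against means of -5.26 ± 0.19 in CS and -4.79 ± 0.54 in Berlin (SD, n = 4 each). Of 671 elements on the study's list of genes expressed in the male germline, 278 were measured on at least 3 arrays of the tud progeny, with a median of -0.04, against 647 in CS with a median of -1.45. On the study's list for the female germline, 292 of 350 elements were tested, with 52 (17.8%) called higher in females and 124 (42.5%) higher in males, against 22.1% and 25.3% over all elements. The median was -0.10, the estimates lay between -1.58 and 2.64, and without the dye term 18 and 52 were called. Among the female germline markers chosen here, 3 of 5 tested were called, against 47.4% over all elements. In wild type these markers leaned toward males, with medians of -1.09 in CS and -0.99 in Berlin, so they do not read the female germline alone. cup, BicC and bru1, which are also on the study's male germline list, were at -1.40, -1.54 and -1.97 in wild type (mean of CS and Berlin). mei-P26 was at 0.24 and me31B at -0.25. The study drew both of its germline lists from other arrays, of a time course. Genes on the male list had to be higher in wild type males than in wild type females and in male tud progeny, or lack expression data in both. The female list was chosen in a similar way from females. Fewer measured elements and a weaker sex difference in tud progeny are therefore partly built into these lists.

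Between 4783 and 8710 of the 15744 array elements had a value on a single array, with medians between -0.06 and -0.0003. Across elements, which are not independent replicates, the ratios of replicates 1 and 2 had a Pearson correlation of 0.86 and those of replicates 3 and 4 of 0.60. Between arrays of opposite orientation it lay between 0.28 and 0.56. The orientation was therefore kept as a term, and each estimate below is the mean of both orientations with a standard error (SE) from the fit. This SE rests on the spread between arrays of one orientation and does not hold the gap between orientations. The labels call the replicates biological but do not say which pools of pupae went on which array, so that the dye and the RNA of replicates 1 and 2 cannot be told apart.

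With limma, 6057 elements with a value on at least 3 arrays were tested, 3996 of them on 4, and 2874 (47.4%) had a Storey q value below 0.15, the threshold of the study. Of these, 1341 (22.1%) were higher in females and 1533 (25.3%) were higher in males. The ratios were mostly small, with medians of 0.35 and -0.32 among the elements called in each direction. At least 2-fold differences were called for 156 elements higher in females and 51 higher in males. All arrays with a value gave the same sign for 1756 of the called elements (29% of those tested), with 793 (13.1%) toward females and 963 (15.9%) toward males, while for 507 of the called elements the means of the orientations lay on opposite sides of 0. Without the dye term 1067 elements (17.6%) were called, 526 (8.68%) toward females and 541 (8.93%) toward males, and all of them were also called with it. A Benjamini-Hochberg adjusted p below 0.05 was found for 1019 (16.8%), 548 (9.05%) toward females and 471 (7.78%) toward males. In whole pupae, fewer cells of a type and less RNA per cell cannot be told apart.

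Array elements are named here through the study's own gene tables, which give names for 2357 elements. The gene lists hold named elements alone, whereas the shares over all elements also cover those without a name. Of 1326 named elements placed on autosomes, 27.6% were called higher in females and 30.2% higher in males. For 294 named X-linked elements these shares were 39.5% and 24.5%. Of the 1645 named elements tested, 382 belong to the set of sex-biased genes that the study chose with these same arrays, and their counts are not independent evidence of a direction. All 382 were called, 296 higher in females and 86 higher in males. Counts outside the set therefore lack called elements, mostly toward females, by the way the set was chosen. Among the 1263 other named elements, 15.4% were called higher in females and 31% higher in males, with a median of -0.05.

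The genes of sex determination and dosage compensation included the largest ratio of the experiment. Of 9 elements, 8 were tested and all were called, 5 higher in females and 3 higher in males, against 22.1% and 25.3% over all elements. Of the 8, 5 belong to the study's sex set. roX1 (CR32777), a non-coding RNA of the dosage compensation complex, had log2 ratios of -7.49, -9.01, -7.00 and -7.80 on replicates 1 to 4. All arrays lay far on the male side in both orientations. Its estimate was -7.82 ± 0.24 (SE, n = 4; limma q = 7.43e-06), a 227-fold difference and the largest of all elements tested in either direction. roX2 (CR32665), the second such RNA, had ratios of -0.07, -3.75, -5.54 and -5.53, with replicate 1 near 0 and the others at -3.75 or below. Its estimate was -3.72 ± 0.49 (SE, n = 4; limma q = 0.00141).

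Sxl (CG18350), the switch gene of the hierarchy, was represented by 2 elements. DAC006G05 had ratios of 2.07, 1.56, 2.12 and 2.56, above 0 on each array and slightly higher on replicates 3 and 4, with an estimate of 2.08 ± 0.12 (SE, n = 4; limma q = 6.26e-05). DAC006G03 had ratios of 0.47, -0.06, 1.11 and 0.81 and a smaller estimate of 0.59 ± 0.12 (SE, n = 4; limma q = 0.00856). The files do not say which parts of the transcript these oligonucleotides read. tra (CG16724), the splicing factor downstream of Sxl, had ratios of 0.51, 1.34, 0.28 and 0.20, above 0 on all arrays, with an estimate of 0.58 ± 0.14 (limma q = 0.0148), or 0.38 without replicate 2.

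abd-A (CG10325), a Hox gene of the abdomen, was uniform, with 0.67, 0.57, 0.76 and 0.53 and an estimate of 0.64 ± 0.10 (SE, n = 4; limma q = 0.00241). fl(2)d, which is required for Sxl splicing, was at 0.31, -0.12, 0.50 and 0.42 and was called at 0.28 ± 0.11 (limma q = 0.0582), but not without the dye term (q = 0.204). ssx (CG3056), a paralog of Sxl, was lower in females on each of the 3 arrays that measured it, at -0.80, -0.08 and -0.53, with an estimate of -0.55 ± 0.14 (limma q = 0.0209). The call for fl(2)d was also lost without replicate 3 (0.26, q = 0.172), and without replicate 1 its estimate was 0.17.

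**Figure D1:**
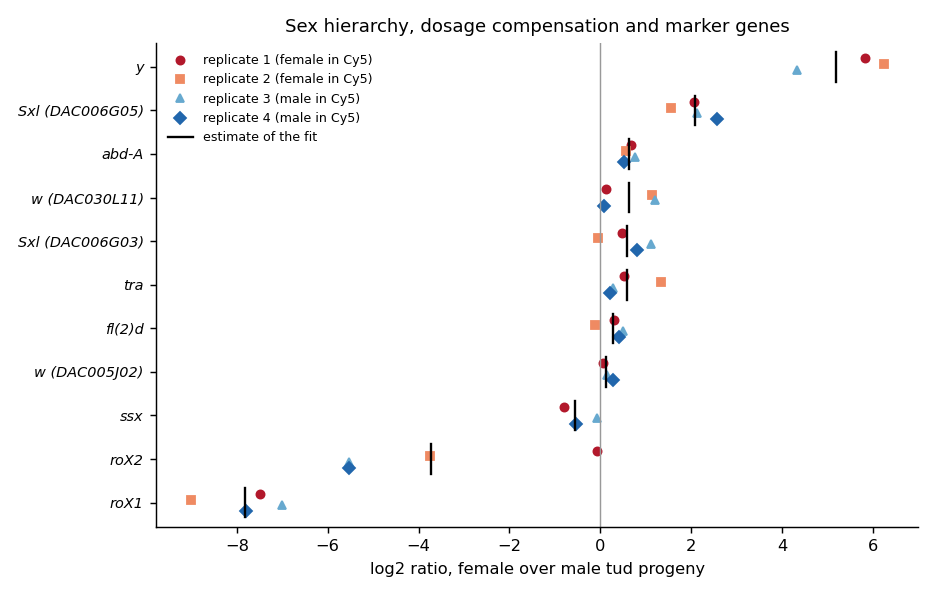
Log2 ratio of female over male tud progeny (x axis) for the tested genes of the sex hierarchy and dosage compensation and for yellow (y) and white (w), with 1 symbol per array and a bar at the estimate of the fit. roX1 lies below -7 on each array, roX2 has a single array near 0, and the Sxl element DAC006G05 lies between 1.56 and 2.56.

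yellow and white, the recessive markers of the cross, are both X-linked. y (CG3757), needed for black pigment, had the largest estimate toward females of all elements tested, with 5.82, 6.24 and 4.33 on replicates 1 to 3 and no value on replicate 4. The estimate was 5.18 ± 0.14 (SE, n = 3; limma q = 7.43e-06), a 36.3-fold difference. Its rank rests on the missing array. Replicate 4 was nearest 0 for 100 of the 116 elements called at least 2-fold higher in females and measured on 4 arrays. CG15545, for example, was at 7.04, 7.16 and 3.51 on replicates 1 to 3 but at 0.88 on replicate 4. y was at 0.88 ± 1.16 in CS (SD, n = 4) and 4.28 ± 4.56 in Berlin (SD, n = 3), where the arrays spread widely. white, an ABC transporter of pigment precursors that also marks the transgenes of the paternal X, was represented by 2 elements. DAC030L11 was high on replicates 2 and 3, at 1.14 and 1.20, and near 0 on replicates 1 and 4, at 0.12 and 0.08, with an estimate of 0.63 ± 0.22 (limma q = 0.0433), and the call was lost without replicate 2 (0.38, q = 0.176) or without replicate 3 (0.36, q = 0.189). DAC005J02 was not called, at 0.13 ± 0.12 (limma q = 0.238).

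Genes of the cuticle and of chitin were mostly called toward females. Of 43 elements, 39 had a value and 35 were tested. Of these, 27 were higher in females (77.1%) and 7 higher in males (20%), 34 calls in all, against 22.1% and 25.3% over all elements. The median was 0.93 against -0.01 over all elements tested. These counts rest largely on the study's sex set, which holds 28 of the 35. Of the other 7, 4 were higher in females, 2 higher in males and 1 was not called. Without the dye term 22 and 7 were called.

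The female-biased members were mostly structural proteins of cuticle and chitin matrices. Cpr72Ec, a cuticular protein, had log2 ratios of 5.0, 5.26 and 3.90 on replicates 1 to 3 and an estimate of 4.52 ± 0.13 (SE, n = 3; limma q = 7.75e-06). Peritrophin-A, a chitin-binding protein, was at 4.96, 4.88 and 2.39, with an estimate of 3.66 ± 0.12 (limma q = 1.49e-05). Neither had a value on replicate 4. Cpr66Cb was at 4.79, 4.49, 1.83 and 0.38, and Cpr50Ca at 3.83, 2.11 and 1.56 on replicates 2 to 4, both above 0 wherever they were measured, with estimates of 2.87 ± 0.21 and 2.83 ± 0.15 (limma q = 0.000124 and 8.29e-05). The chitin deacetylases serp and verm, which modify chitin, and kkv, the chitin synthase of the epidermis, were chosen after their values were seen. serp had an estimate of 2.11, the 2 verm elements of 1.97 and 0.75, and kkv of 0.20, and all were called.

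Of the 7 male-biased members, m, dy, dyl and pio encode ZP-domain proteins that anchor the epidermis to the extracellular matrix and shape wing cells, hairs and denticles. pio was at -1.25, -1.18, -0.54 and -0.99, below 0 on each array, with an estimate of -0.99 ± 0.11 (SE, n = 4; limma q = 0.000617). dyl was at -0.66, -1.34, -1.08 and -0.03, with an estimate of -0.78 ± 0.19 (limma q = 0.0145) that was -0.52 without replicate 3, and m and dy, chosen after their values were seen, at estimates of -0.64 and -0.51. The remaining member, CG15020, was at -0.66 and was also chosen after its value was seen. Cht10, a chitinase that degrades old cuticle, was below 0 on each array and had an estimate of -0.89 ± 0.13 (limma q = 0.00197). The cuticular protein Cpr72Ea was at -1.05 ± 0.20 (SE, n = 3; limma q = 0.00882), opposite in sign to Cpr72Ec. Cht4 was not called, at 0.11 ± 0.13 (limma q = 0.294), but was without replicate 1 (0.27, q = 0.0934). Without replicate 3, 22 of 25 members that could be tested were called.

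**Figure D2:**
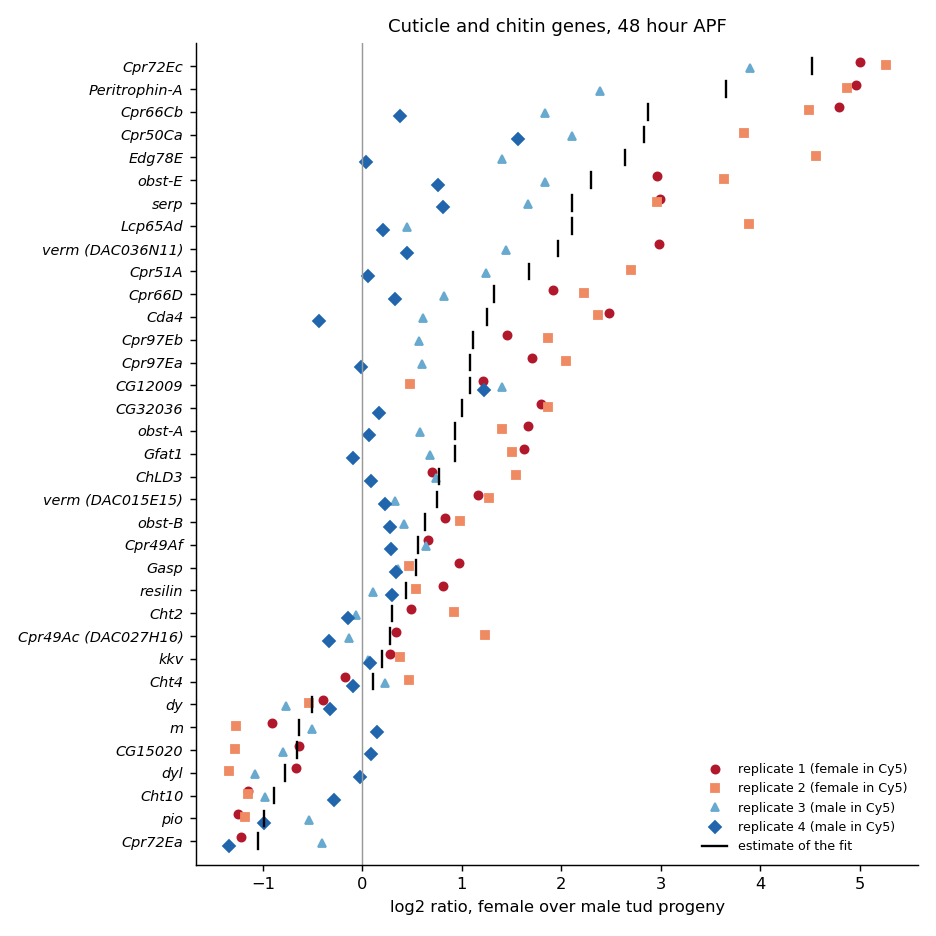
Log2 ratio of female over male tud progeny (x axis) for the 35 tested elements of the cuticle and chitin list, ordered by estimate (bar), with 1 symbol per array. Replicates 1 and 2 lie to the right of replicates 3 and 4 for most female-biased members, and replicate 4 is the array nearest 0 for 18 of the 24 members measured on 4 arrays.

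The size of these ratios differed between arrays. Over the list, the median was 0.97, 1.45, 0.57 and 0.09 on replicates 1 to 4. Over the 156 elements called at least 2-fold higher in females, the medians were 2.62, 2.60, 1.23 and 0.51, and 152 of the 156 were farther from 0 with female RNA in Cy5 than with male RNA in Cy5. Replicates 3 and 4 thus differed from each other although their orientation was the same, and replicate 4 was nearest 0 for 100 of the 116 measured on 4 arrays, against 1462 of 3996 over all elements. For the 51 elements called at least 2-fold higher in males the medians were -1.38, -1.88, -1.06 and -0.75, and replicate 4 was nearest 0 for 30 of the 44 measured on 4 arrays. Of the 156, 128 had the same sign on each array and 139 were called without the dye term, and of the 51 the counts were 50 and 50. The dye term, which sets replicates 1 and 2 against replicates 3 and 4, had a q value below 0.15 for 2468 elements (40.7%) and a Benjamini-Hochberg adjusted p below 0.05 for 317 (5.23%). This term had, across elements of the same array design, a Pearson correlation of 0.49 with that of CS (n = 5947 elements) and of 0.48 with that of Berlin (n = 5071), as a description. For the 156 elements the median of the term was 0.87 in tud progeny, 0.39 in CS, 0.36 in Berlin, 0.07 in the dsxD comparison and -0.03 in the tra comparison.

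**Figure D3:**
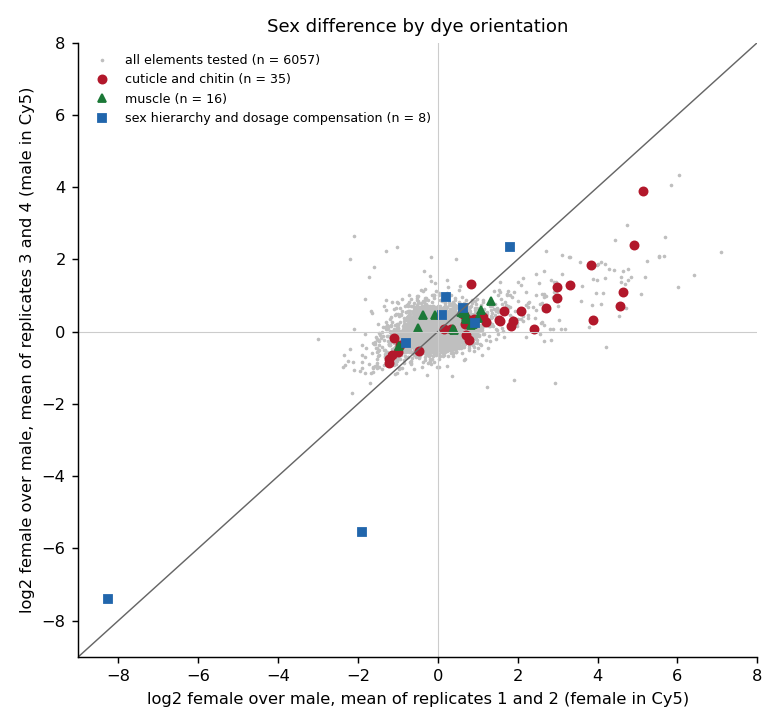
Mean log2 ratio of female over male tud progeny on replicates 1 and 2 (female in Cy5, x axis) and on replicates 3 and 4 (male in Cy5, y axis), with 1 point per element and a line of equal values. Most cuticle and chitin genes (median 1.22 on the x axis and 0.32 on the y axis) lie below the line on the female side, whereas roX1 and the Sxl element with the larger ratio lie near it.

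Among all named elements called in the same direction on each array, the 15 with the largest estimates toward females lay between 3.17 and 5.18, and all belonged to the study's sex set. Besides y, Cpr72Ec and Peritrophin-A they held Cyp303a1, a cytochrome P450 needed for mechanosensory bristles, dpr13, an immunoglobulin-domain protein of neurons, Crys, a crystallin of the eye lens, Vajk4 and genes known by CG number. CG12003 was at 6.01, 5.65 and 4.06 on replicates 1 to 3, with an estimate of 4.95 ± 0.13 (SE, n = 3; limma q = 7.43e-06). Like y, Cpr72Ec and Peritrophin-A, it had no value on replicate 4, and its rank rests on that. CG14624 had the smallest gap between arrays among those measured on 4, at 4.56, 4.92, 3.27 and 2.62 (estimate 3.84 ± 0.13, limma q = 7.43e-06). CG15545 had a wide one, at 7.04, 7.16, 3.51 and 0.88, still above 0 on each array. All 15 were called without the dye term, with the highest q of 0.0617 for CG15615.

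Pigmentation and tanning genes overlapped with this group. Of 11 elements, 9 were tested, with 5 called toward females and 1 toward males, against 22.1% and 25.3% over all elements. Of the 9, 4 belong to the study's sex set, and of the other 5, 1 was called toward females and 1 toward males. ple, which encodes the tyrosine hydroxylase that starts dopamine synthesis, was at 4.08, 1.62 and -0.07 on replicates 2 to 4, spread over both sides of 0, and was called at 2.43 ± 0.32 (SE, n = 3; limma q = 0.00218) but not without the dye term (q = 0.152). The yellow relatives yellow-e, yellow-d2 and yellow-h were above 0 on all 4 arrays, at estimates of 0.92, 0.89 and 0.80, of which yellow-h was chosen after its values were seen. Catsup, a negative regulator of ple, was at -0.26 ± 0.12 (limma q = 0.0922) and was not called without the dye term (q = 0.211), and yellow-f was not called, at -0.05 ± 0.09 (limma q = 0.35). The list also holds Rpn3, named Diphenol oxidase A2 in the study's table and now known as a proteasome subunit, which was not called. Ddc and ebony, enzymes of cuticle tanning, had values on 2 arrays each, at -1.17 and -0.60 and at -0.59 and -1.19, and were not tested.

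Toward males, the 15 named elements with the largest estimates and the same sign on each array lay between -7.82 and -1.26, and after the roX RNAs none was below -1.68. Spn100A, a serpin, was at -1.85, -2.91, -1.22 and -0.75 (estimate -1.68 ± 0.18, limma q = 0.000509). CG18735 was at -1.71, -2.48, -1.28 and -0.83 (estimate -1.58 ± 0.15, limma q = 0.000303), and nw (narrow), a wing-shape gene, at -1.91, -2.60, -0.66 and -0.99 (estimate -1.54 ± 0.13, limma q = 0.000238). Replicate 2 had the value farthest from 0 for these 3 genes. tyn, nyo and mey, which like pio and dyl encode ZP-domain proteins, had estimates of -1.26, -1.37 and -1.31, each below 0 on all 4 arrays. The remaining members were vri, ImpE1 and Osi11, described with their lists, and C901, Np (a membrane serine protease), bnb and CG13082 at -1.31, -1.30, -1.28 and -1.26.

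Ecdysone-responsive genes, targets of the steroid hormone that times metamorphosis, were mostly called toward males. Of 23 elements 14 were tested, and 3 were higher in females (21.4%) and 8 higher in males (57.1%), with a median of -0.24. The shares over all elements were 22.1% and 25.3%, and without the dye term 2 and 6 were called. Of the 10 outside the study's sex set, 2 were higher in females and 5 in males, against 15.4% and 31% of all named elements outside it. vri, a bZIP transcription factor required for wing hairs and the circadian clock, was at -1.56, -2.25, -1.47 and -0.52, below 0 on each array, with an estimate of -1.45 ± 0.18 (SE, n = 4; limma q = 0.00108). ImpE1, an ecdysone-inducible receptor-like protein, had 2 elements, at -1.50 ± 0.25 and -0.99 ± 0.17 (limma q = 0.00355 and 0.00418), both below 0 on each array. ImpL1 was at -1.62, -1.96, -0.62 and -0.31, with an estimate of -1.13 ± 0.11 (limma q = 0.000335). Higher in females were Ldh, the lactate dehydrogenase listed in the study as Ecdysone-inducible gene L3, at 0.88 ± 0.16, and 2 elements of ImpL2, an insulin-binding protein, at 0.53 ± 0.13 and 0.21 ± 0.10 (limma q = 0.0061, 0.0168 and 0.1). The smaller ImpL2 estimate was not called without any 1 of replicates 2, 3 and 4 (0.12, 0.17 and 0.24). Eip63E and 1 element of broad were not called.

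The Osiris genes, a clustered family of membrane proteins of cuticle-forming epithelia, were split. Of 4 tested, Osi11, Osi21 and Osi3 were higher in males and Osi6 higher in females, against 25.3% and 22.1% over all elements. Of the 4, 3 belong to the study's sex set. Osi11 was at -1.39, -1.98, -1.98 and -0.86 (estimate -1.55 ± 0.19, SE, n = 4; limma q = 0.00106) and Osi21 at -0.92, -1.73, -0.99 and -0.23 (estimate -0.97 ± 0.17). Osi6 was at 1.21, 0.86, 0.09 and 0.77 (estimate 0.73 ± 0.13, limma q = 0.0057). Osi3 changed sign between arrays, at -0.30, -0.99, 0.20 and -0.08, and was not called without the dye term (q = 0.284), without replicate 2 (-0.12) or without replicate 4 (-0.23).

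Of 19 elements for muscle genes, 16 were tested, 12 of them higher in females, 2 lower in females and 2 not called, with a median of 0.54. The shares were 75% toward females and 12.5% toward males, against 22.1% and 25.3% over all elements, but 9 of the 16 belong to the study's sex set. Of the other 7, 3 were called toward females and 2 toward males. Scp1, a sarcoplasmic calcium-binding protein, was at 1.39, 1.28, 0.81 and 0.89 (estimate 1.09 ± 0.09, SE, n = 4; limma q = 0.000199), with all arrays close together. Lmpt, a LIM-domain protein of muscle, was at 0.84 ± 0.13, fln (flightin, of the flight muscle thick filament) at 0.70 ± 0.09 and TpnC4, a troponin C of flight muscle, at 0.61 ± 0.10, each above 0 on all 4 arrays. mbc, which acts in myoblast fusion, was lower in females at -0.68 ± 0.13 (SE, n = 3; limma q = 0.00791), and tmod, a cap of the thin filament, was called at -0.19 ± 0.11 although its arrays lay on both sides of 0, and this call was lost without replicate 2, 3 or 4 (-0.06, -0.19 and -0.19). up and Argk1 were not called. Without replicate 3, 9 of the 12 muscle elements that could then be tested were called.

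All 6 elements for larval serum and fat body proteins were tested, none of them in the study's sex set, and 4 were higher in females and 1 higher in males, against 22.1% and 25.3% over all elements. Lsp1alpha, an X-linked storage protein made by the larval fat body, was at 1.80, 1.68, 0.88 and 1.19, above 0 on each array, with an estimate of 1.39 ± 0.10 (SE, n = 4; limma q = 0.000115). Its autosomal relative Lsp1beta was at 0.98, 1.28, 0.20 and 0.12 (estimate 0.65 ± 0.10, limma q = 0.00257), while Lsp1gamma was not called, with 1.11 on replicate 1 and values between -0.14 and 0.08 on the others. The fat body proteins Fbp2 and Fbp1 were at 0.55 ± 0.10 and 0.26 ± 0.10, and Tsf1, an iron-binding transferrin, was lower in females at -0.34 ± 0.10 (limma q = 0.0262). Fbp1 had arrays on both sides of 0 and lost its call without replicate 3 (0.18) and without the dye term (q = 0.307), while Lsp1gamma was called without replicate 2 (0.55).

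Of 24 elements for immune and stress peptides, 19 were tested, 11 higher in females (57.9%) and 2 higher in males (10.5%), against 22.1% and 25.3% over all elements. Without the dye term 8 and 1 were called. Of the 19, 5 belong to the study's sex set, and of the other 14, 6 were called toward females and 2 toward males. TotB, a stress-induced humoral factor, was at 0.62, 0.85, 0.72 and 0.82 (estimate 0.75 ± 0.10, SE, n = 4; limma q = 0.00122), with all arrays close together. The lysozymes LysB and LysS were at 0.78 ± 0.17 and 0.57 ± 0.10. The drosomycin-like gene Drsl1 was at 0.81, 3.99, 0.15 and -0.14, with replicate 2 far above the others. Its estimate of 1.20 ± 0.43 was 0.40 without replicate 2 (limma q = 0.0532) and 2.0 without replicate 1, and it was not called without the dye term (q = 0.222). GNBP1, a recognition protein, was lower in females on each array, at -0.58 ± 0.12 (limma q = 0.00925), and AttB, an antibacterial peptide, had a called estimate of -0.27 ± 0.14 over 3 arrays (limma q = 0.119) that was not called without the dye term (q = 0.245). Drsl4 and key were not called, but Drsl4 was without replicate 1 (0.42) and key without replicate 2 (-0.33).

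Some heat shock genes varied widely between arrays, such as Hsp70Ba and Hsp68, while others, such as Hsc70-4 and Hsp23 (both chosen after their values were seen), lay between -0.12 and 0.19 on all arrays. Of 9 tested with limma, 0 were called higher in females, also 0 at an unadjusted p below 0.05, and 2 higher in males (22.2%). The shares over all elements were 22.1% and 25.3%. The 2 were Hsp27 and Hsp67Ba, at -0.27 ± 0.14 and -0.23 ± 0.09 (limma q = 0.109 and 0.0668), neither called without the dye term. Hsp27 also lost its call without replicate 1 or 4 (-0.15 and -0.11), and Hsp67Ba without replicate 3 (-0.20). Hsp70Ba, the inducible chaperone, was at -1.60, 3.19, 2.42 and 0.30, and Hsp68 at -0.86, 2.27, 1.55 and -0.46, so that both were far higher in females on replicates 2 and 3 than on replicates 1 and 4, across the orientations. Neither was called, at 1.08 ± 0.69 and 0.62 ± 0.49 (limma q = 0.156 and 0.206), but both were without replicate 1, at 2.28 and 1.40 (q = 0.0215 and 0.0472), and without replicate 4, at 1.61 and 1.12 (q = 0.149 and 0.135). Replicates 2 and 3 are also the arrays on which the white element DAC030L11 was high, and their part in these ratios was not tested.

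Proteasome subunits, a list of housekeeping genes, had estimates between -0.33 and 0.16. Of 25 tested, 1 was higher in females (4%) and 6 were higher in males (24%), with a median of -0.03, against 22.1% and 25.3% over all elements. Rpt2, a base ATPase, was lower in females on each array at -0.32 ± 0.09 (limma q = 0.0257), and Rpn7 was at -0.32 ± 0.12. Pomp, an assembly factor, and Rpt6 were at -0.33 ± 0.12 and -0.26 ± 0.12, with replicate 2 above 0 at 0.14 and 0.03. The estimate of Pomp was -0.19 without replicate 1. Pomp, Rpn7 and Rpt6 were not called without the dye term (q = 0.173, 0.154 and 0.212). Rpn12 was at 0.16 ± 0.09 (limma q = 0.132) and was not called without any 1 of the 4 arrays, nor Rpt6 without replicate 1, 3 or 4 (-0.10, -0.27 and -0.26), and Prosalpha5 and Rpt1 were not called. Among the few female germline markers that could be tested, mei-P26, a TRIM-NHL protein also expressed outside the germline, was higher in females at 0.67, 0.07, 0.91 and 0.76 (estimate 0.60 ± 0.12, limma q = 0.00797), cup was called at 0.21 ± 0.10 but not without replicate 2 or 4 (0.22 and 0.13), BicC was called at -0.29 ± 0.12, and me31B and bru1 were not called.

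**Figure D4:**
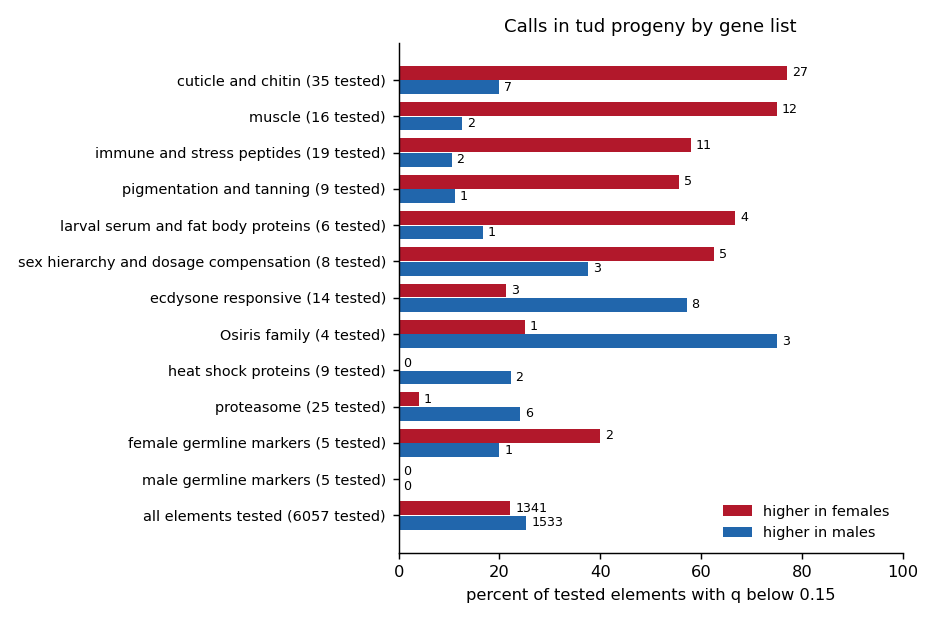
Percent of the tested elements of each list (x axis) with a q value below 0.15, higher in females (red) or higher in males (blue), with the number of elements at the end of each bar and all 6057 elements in the lowest row. The cuticle, muscle, immune, pigmentation, larval serum, sex hierarchy, Osiris and female germline marker lists exceed the 22.1% of all elements toward females, and the sex hierarchy, ecdysone and Osiris lists the 25.3% toward males. The Osiris share toward females, 25%, is 1 of 4 elements. The lists hold named elements alone, and among 1326 named autosomal elements the shares were 27.6% toward females and 30.2% toward males. The set that the study chose with these arrays holds 28 of the 35 cuticle, 9 of the 16 muscle, 5 of the 19 immune, 4 of the 9 pigmentation, 5 of the 8 sex hierarchy, 4 of the 14 ecdysone and 3 of the 4 Osiris elements, and 1 of the 5 female germline markers.

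X-linked genes were compared with autosomal ones among tested elements that could be placed on an arm with the RefSeq annotation of the later assembly Release 6 plus ISO1 MT. The 294 X-linked elements had a median of 0.07 and were called higher in females in 39.5% and higher in males in 24.5% of cases. The 1326 autosomal elements had a median of -0.02, with 27.6% and 30.2%. The X-linked median was above the autosomal one on each array, at 0.09, 0.12, 0.10 and 0.07 against -0.01, 0.02, 0.02 and -0.02. Outside the study's sex set, 196 X-linked elements had a median of -0.05 with 17.3% called higher in females and 28.6% in males, and 1047 autosomal elements also had a median of -0.05, with 14.9% and 31.6%. All tested elements of that set were called, mostly toward females, so that leaving it out lowers the female share by construction. The values outside it therefore cannot decide whether X-linked genes differ from autosomal ones.

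The sex difference of tud progeny was then compared with that of wild type pupae, to see which ratios were altered where the germline is missing and the genotype differs. In a fit over 12 arrays, with 4709 elements measured on at least 3 arrays of the tud progeny, CS and Berlin, the difference between tud progeny and the mean of CS and Berlin had a q value below 0.15 for 2735 (58.1%). The ratio was higher in tud progeny for 883 (18.8%) and lower for 1852 (39.3%), and with each array centered on its median for 1075 and 1307. Over all elements the median was -0.02 in tud progeny and 0.14 in wild type, and the median difference was -0.13, against which the values below are to be read. In wild type, 3880 of these elements (82.4%) differed between the sexes, 2774 (58.9%) higher in females and 1106 (23.5%) higher in males.

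Among named elements, genes with strong male bias in wild type gave 9 of the 10 largest differences toward higher values in tud progeny. The names come in part from the study's male germline list, which favors such genes. Of 252 elements on the study's male germline list in this fit, 225 were higher in tud progeny than in wild type, with medians of -0.03 in tud progeny and -0.88 in wild type. The list was chosen for higher levels in wild type males than in male tud progeny, so that this direction is largely built in. Of the 10 named elements with the largest such differences, 9 had a ratio between -0.59 and 0.38 in tud progeny and between -6.13 and -2.41 in wild type. The most extreme was CR32660, at -0.13 in tud progeny and -6.13 in wild type, a difference of 6.0 ± 0.44 (SE; limma q = 1.63e-05), followed by Mst87F (4.94), CG9016 (4.04), CG18170 (3.65), CG8701 (3.47) and CG16972 (3.10). The exception among the 10 was y, at 5.18 in tud progeny and 2.04 in wild type, a difference of 3.14 ± 0.95 (limma q = 0.0205).

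In the opposite direction, all 10 named genes were male-biased in tud progeny. The largest difference was that of roX1, at -7.82 in tud progeny and -5.14 in wild type, a difference of -2.68 ± 0.35 (SE; limma q = 0.00023). ImpE1 (DAC031F23) was at -1.50 in tud progeny and 0.01 in wild type, Spn100A at -1.68 in tud progeny and -0.37 in wild type, and vri at -1.45 in tud progeny and -0.26 in wild type. CG18735, nw and Np lay between -1.58 and -1.30 in tud progeny and between -0.33 and -0.05 in wild type. pdm3, a POU-domain transcription factor, and Cpr72Ea were on opposite sides of 0 in tud progeny and wild type, with pdm3 at -0.70 in tud progeny and 0.62 in wild type, and Cpr72Ea at -1.05 in tud progeny and 0.28 in wild type. CG17118 was at -0.45 in tud progeny, the mean of -1.82 and 0.91 in the orientations, and at 0.88 in wild type.

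Each wild type strain was also set against the tud progeny alone, and the strains were not tested against each other. Over the 28 cuticle and chitin elements in the fit the median was 0.85 in tud progeny, 0.22 in CS and 0.80 in Berlin. Relative to CS alone, 17 were higher and 5 lower in tud progeny, where 17.8% of all elements were higher and 23.5% lower. Relative to Berlin alone, 7 were higher and 9 lower, where 16.7% of all elements were higher and 45.2% lower. Over all elements the medians were -0.02 in tud progeny, 0.06 in CS and 0.19 in Berlin. Peritrophin-A was at 3.66 in tud progeny, against means of 0.53 ± 0.82 in CS and 1.73 ± 0.95 in Berlin (SD, n = 4 each). CG12003 was at 4.95 in tud progeny, against 0.56 ± 1.29 in CS and 4.94 ± 1.66 in Berlin. The muscle list had medians of 0.54 in tud progeny, 0.16 in CS and 0.51 in Berlin. Across elements, the estimates of tud progeny had a Pearson correlation of 0.22 with those of CS (n = 5947 elements) and of 0.46 with those of Berlin (n = 5071), also as a description. Lsp1alpha was at 1.39 in tud progeny, -1.09 ± 0.33 in CS and 0.41 ± 0.44 in Berlin (SD, n = 4 each), with a difference from their mean of 1.73 ± 0.15 (limma q = 1.55e-05).

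**Figure D5:**
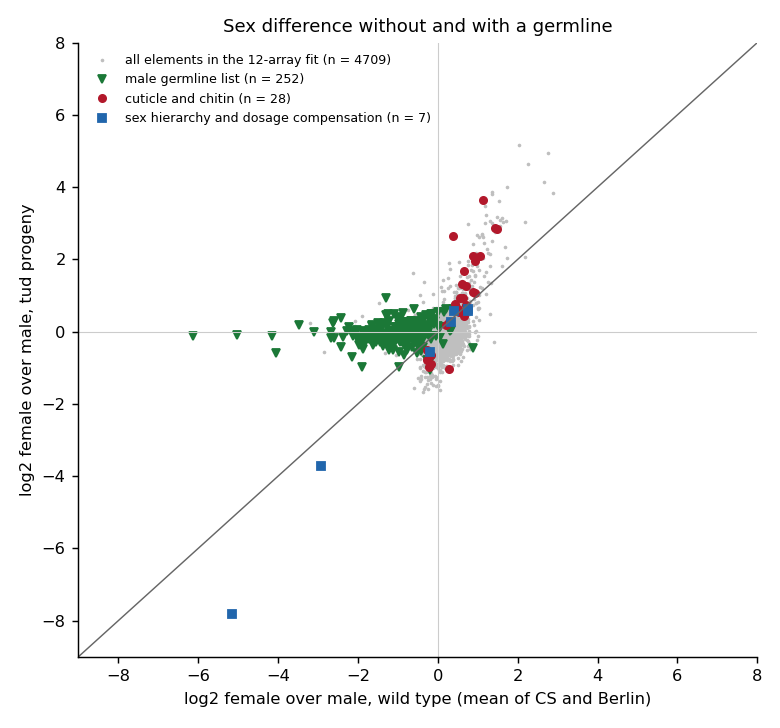
Log2 ratio of female over male in tud progeny (y axis) against that in wild type (x axis, mean of CS and Berlin), with 1 point per element of the 12-array fit and a line of equal values. The 252 elements of the male germline list spread along the x axis at y values near 0, and roX1 and roX2 keep negative ratios on both axes.

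For some members the ratio of CS female over XX pseudomale is given beside that of the sexes, without a test. The pseudomales also differ from CS in genetic background and markers, which these ratios do not separate from the change in the hierarchy. roX1 was at -7.82 in tud progeny, -0.05 ± 0.20 for CS females against dsxD pseudomales (SD, n = 3) and -0.01 ± 0.39 against tra pseudomales (SD, n = 4), both of which have a pair of X chromosomes. abd-A was at 0.64 in tud progeny and at 0.63 ± 0.09 and 0.48 ± 0.29 in the dsxD and tra comparisons (SD, n = 4 each). Scp1 was at 1.09 in tud progeny, 0.90 ± 0.06 in the dsxD and 0.85 ± 0.16 in the tra comparison. vri was at -1.45 in tud progeny, -1.57 ± 0.33 in the dsxD comparison (SD, n = 4) and -1.04 ± 0.18 in the tra comparison (SD, n = 3). Spn100A was at -1.68 in tud progeny, -2.58 ± 0.18 in the dsxD and -0.57 ± 0.59 in the tra comparison, and Peritrophin-A at 3.66 in tud progeny, 2.39 ± 0.66 in the dsxD and 0.70 ± 0.89 in the tra comparison. Lsp1alpha and TotB, higher in female than in male tud progeny, had negative means in both, Lsp1alpha at -2.95 ± 0.36 in the dsxD and -3.54 ± 0.45 in the tra comparison, and TotB at -1.13 ± 0.94 in the dsxD and -0.62 ± 0.22 in the tra comparison (SD, n = 4 each). This was not particular to them. Fbp2 was at -1.52 ± 0.31 in the dsxD and -1.98 ± 0.15 in the tra comparison. Fbp1 was at -0.81 ± 0.44 and -0.79 ± 0.31 (SD, n = 4 each).

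Among elements that could not be named, DAC008D16 and DAC020G14 had the largest estimates toward females, at 3.81 ± 0.52 (SE, n = 4; limma q = 0.00161) and 2.49 ± 0.23 (limma q = 0.000269), and both were far higher on replicates 1 and 2 than on replicate 4. DAC020G14 was at 5.32, 3.77, 0.64 and 0.24. Toward males, DAC040J21 was at -2.14, -2.16, -1.89 and -1.49, a narrow range, with an estimate of -1.92 ± 0.10 (limma q = 4.56e-05), followed by DAC034F04 at -1.62 ± 0.21 (limma q = 0.00127).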

How the data were processed

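Values were log2 ratios deposited by the authors, 1 per array element and array. Per the study's methods the arrays were scanned with a GenePix scanner, an element was retained if over 75% of its pixels exceeded background by 1 SD in 1 channel or both, and each array was normalized by global loess in LIMMA. Neither background subtraction nor between-array scaling is described. The direction of the ratio, which the study's text does not give, follows its table of fold changes. Control elements (32) were left out.

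Elements with a value on at least 3 arrays, in both dye orientations, were fitted with limma 3.58.1 in R 4.3.3 (lmFit and eBayes), with an intercept for sex and a dye term of +1 or -1, two-sided. Storey q values used lambda from 0.05 to 0.95 in steps of 0.05, and q below 0.15 was called. The difference from wild type was a contrast over 12 arrays with a dye term for each comparison. Genes were placed on arms with the RefSeq annotation of Release 6 plus ISO1 MT (2325 elements placed). In simulated tud progeny data for 6057 elements, 100% of 100 elements with a log2 change of 1 and 89% of 100 with a change of 0.5 were recovered, and 19.6% of the calls were false. For the difference from wild type (4709 elements) these values were 98%, 44% and 17%. The simulations changed only these few elements and drew independent normal noise. Their rates do not carry over to the data, where far more elements were called and arrays of the same orientation differed. p-values measure only the spread between these arrays.

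The members and gene lists were chosen with earlier results of these data known. Named genes are the members of the sex hierarchy list (1 is not reported here), white and yellow, the 15 named elements with the largest estimate in each direction that were called with the same sign on each array, up to 4 called members in each direction and 2 not called for each other list, the 10 largest differences from wild type in each direction, and 2 unnamed elements in each direction. The alternatives were no dye term, other minimum numbers of arrays, Benjamini-Hochberg adjustment, centering, scaling, array weights, a test without moderation, a fit over all 28 arrays, single wild type strains, a replicate block and leaving out each array. Leaving out each array for 3 gene lists was added after seeing the data. Python 3.11.15 and matplotlib 3.10.9 drew the figures. The number of arrays limits the precision.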

Additional observations from a re-analysis of the deposited data

Results flagged for a closer look

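The sex difference in tud progeny differed from that of wild type for 2735 elements by the test of the difference itself (limma, q value below 0.15). The 22 given here are the 10 named elements with the largest difference in each direction and those members of the sex hierarchy list that passed, so that other named elements with called differences, such as Peritrophin-A (2.53) and Lsp1alpha (1.73), are not among them. Toward higher values in tud progeny the differences were 6.0 for CR32660, 4.94 for Mst87F, 4.04 for CG9016, 3.65 for CG18170, 3.47 for CG8701, 3.14 for y, 3.10 for CG16972, 2.88 for CG6279, 2.87 for Ant2 and 2.79 for CG31231. CR32660, Mst87F, CG9016, CG18170, CG8701, CG16972, CG6279, Ant2 and CG31231 are on the study's male germline list, and y is not. Toward lower values they were -2.68 for roX1, -1.52 for ImpE1 (DAC031F23), -1.33 for CG17118, -1.33 for Cpr72Ea, -1.32 for pdm3, -1.32 for CG18735, -1.31 for Spn100A, -1.25 for Np, -1.21 for nw and -1.19 for vri. The remaining elements were roX2 (-0.81) and ssx (-0.37), members of the sex hierarchy list. Neither had a Benjamini-Hochberg adjusted p below 0.15 (limma, 0.255 for roX2 and 0.151 for ssx). roX2 was at -3.72 in tud progeny, -3.68 ± 0.23 in CS and -2.15 ± 1.58 in Berlin (SD, n = 4 each for CS and Berlin).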

How the results depend on the processing

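Without the dye term 1067 of 6057 elements were called in tud progeny instead of 2874, with Benjamini-Hochberg adjustment 1901 below 0.15 and 1019 below 0.05, and in a fit over all 28 arrays 1904. A test without moderation gave 1927 calls. Leaving out each array in turn, with values required on the other 3, gave between 1391 (without replicate 3) and 2272 (without replicate 1) calls, and 1535 without replicate 4, over fewer elements. Benjamini-Hochberg adjustment below 0.05 left 317 elements for the dye term, 963 for the difference from wild type and 2013 for the sex difference of wild type. The difference from wild type gave 1403 calls with values on all 12 arrays and between 1428 (without replicate 3 of the tud progeny) and 1851 (without replicate 2) when arrays were left out, with 1685 without replicate 1 and 1511 without replicate 4. With CS alone 836 elements were higher and 1108 lower in tud progeny, and with Berlin alone 787 and 2130. Without the dye term the calls were 0 for heat shock genes, 1 for the proteasome and 1 for female germline markers. Leaving out single arrays, added after seeing the data, gave between 22 and 28 calls for the cuticle list, between 9 and 12 for muscle and between 6 and 8 for the sex hierarchy. The X-linked median was 0.098 with each array centered and 0.092 without the dye term, and the autosomal median 0.0074 with each array centered. No called value of a named element changed sign under any alternative run, while values that were not called, such as those of Hsp70Ba (-0.12) and Hsp68 (-0.16) without replicate 2, did. Of the named elements of tud progeny, 17 lost their call without the dye term, 9 and 19 with Benjamini-Hochberg adjustment below 0.15 and 0.05, and 12 in the fit over all 28 arrays. In the test without moderation 18 lost it, among them ple, dyl, ssx, Cpr72Ea, LysB and Cyp303a1. All 20 named differences from wild type, which do not include roX2 and ssx, kept their call under every alternative in which they could be fitted. Labels give no shared source to arrays of the same replicate number. Of 12 same-numbered pairs of tud progeny, CS and Berlin arrays, 10 had a correlation of deviations over 0.1, at most 0.50, and CS with Berlin had 0.023 and 0.050 for replicates 2 and 4. Arrays of the same orientation but other number had 0.15 to 0.49, and the own number was the best in 5 of 12, so that the numbers were not taken to pair the arrays. A replicate block gave 2434 calls for the difference from wild type and 3815 for wild type. Element intensities were not analysed here, so the limit set by signal over background is unknown.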
